A study of Homo sapiens with 21 samples.

Results

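The replication-dependent histone genes encode the bulk of the linker histone H1 and of the core histones H2A, H2B, H3 and H4. Members were the protein-coding rows on primary chromosomes named by the older HIST1 to HIST4 scheme, which gave 71 of the 66738 genes in the count table. They comprised 6 H1, 17 H2A, 18 H2B, 15 H3 and 15 H4 genes. The largest group, HIST1, held 55 genes over 2168 kb of chromosome 6 (hg38 chr6:25726132-27893843), among 20 other coding genes. HIST2 held 12 genes on chromosome 1, HIST3 held 3 on the same chromosome, and HIST4H4 lay alone on chromosome 12. The name rule also took in genes known for testis expression (HIST1H1T, HIST1H2AA, HIST1H2BA, HIST3H3). Names below are those of the table, with the current symbol at first use.

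RS4;11, an established line of B-precursor acute lymphoblastic leukaemia that carries a KMT2A-AFF1 fusion, was kept for 24 h in complete medium (+Asn), in medium lacking asparagine (-Asn), or in the latter plus ferric nitrate at 10 µM and the iron carrier hinokitiol at 0.75 µM (-Asn+Fe, written "with iron" below). No group received iron or hinokitiol alone or with asparagine, so the contribution of each agent cannot be told apart. Each medium had 3 RNA libraries and 3 libraries of chromatin precipitated for H3K4me3, a mark of active promoters. No label ties replicates to separate cultures, and p-values therefore reflect only the spread between these samples, which may be technical. All libraries came from 1 cell line.

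Replication-dependent histone genes mostly lack introns and are transcribed when DNA is copied. Their messages usually end in a conserved stem-loop bound by SLBP in place of a poly(A) tail, and they are cleaved with the help of the U7 small nuclear ribonucleoprotein in nuclear bodies organised by NPAT and CASP8AP2. Some members also yield longer polyadenylated transcripts, which are known from cells that have left the cycle. H2A and H2B genes often stand head to head and share the DNA between their starts, where an octamer motif bound by POU2F1 and CCAAT and TATA boxes are typical of H2B promoters.

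The promoter sequences of 6 members around which the results turn are shown, because they include both partners of a pair that behaved differently and members that rose or fell. Each gives the 160 bases before the RefSeq start (RefSeq promoter table, GRCh38.p14), 5′ to 3′ on the gene's own strand. Capitals mark the octamer (ATTTGCAT on either strand), the CCAAT box (on either strand) and the TATA box (TATAAA on the gene's strand).
HIST1H2BK (H2BC12), chr6:27146859-27147018, minus strand: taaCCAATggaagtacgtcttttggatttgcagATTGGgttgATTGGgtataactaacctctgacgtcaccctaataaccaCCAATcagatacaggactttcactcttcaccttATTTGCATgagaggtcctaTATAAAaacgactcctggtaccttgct
HIST2H2BE (H2BC21), chr1:149886683-149886842, minus strand: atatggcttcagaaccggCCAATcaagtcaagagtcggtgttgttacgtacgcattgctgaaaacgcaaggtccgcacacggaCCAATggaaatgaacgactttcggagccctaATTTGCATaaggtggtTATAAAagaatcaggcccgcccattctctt
HIST1H2AC (H2AC6), chr6:26124012-26124171, plus strand: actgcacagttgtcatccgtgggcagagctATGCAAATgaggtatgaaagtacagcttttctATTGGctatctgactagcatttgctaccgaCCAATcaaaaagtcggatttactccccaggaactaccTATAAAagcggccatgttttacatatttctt
HIST1H2BC (H2BC4), chr6:26123927-26124086, minus strand: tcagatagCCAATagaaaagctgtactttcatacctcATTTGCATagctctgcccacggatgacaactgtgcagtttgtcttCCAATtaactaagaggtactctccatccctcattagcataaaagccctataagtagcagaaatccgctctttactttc
HIST1H1C (H1-2), chr6:26056471-26056630, minus strand: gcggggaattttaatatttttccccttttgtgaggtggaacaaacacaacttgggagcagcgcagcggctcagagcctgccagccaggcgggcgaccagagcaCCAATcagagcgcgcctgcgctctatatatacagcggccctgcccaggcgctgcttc
HIST1H1B (H1-5), chr6:27867589-27867748, minus strand: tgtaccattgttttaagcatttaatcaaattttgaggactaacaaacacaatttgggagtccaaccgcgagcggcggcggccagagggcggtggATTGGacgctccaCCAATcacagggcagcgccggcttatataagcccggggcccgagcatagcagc

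Motif content followed the families. Of the 71 members, 66 had a RefSeq promoter. Within the 250 bases before the start, the octamer was found in 14 of 18 H2B and 11 of 16 H2A promoters, in 1 of 13 H3 promoters and in 0 of 6 H1 and 0 of 13 H4 promoters. The H3 promoter with the octamer, listed for HIST1H3D, is the same stretch as that of HIST1H2AD (chr6:26199244-26199543), so the 2 are not separate matches. The H2A and H2B counts are not independent either, because windows of head-to-head partners overlap and a single site can count for both. The octamer of HIST2H2BE (chr1:149886721-149886728), for example, also lies in the window of HIST2H2AC. Of all 35116 promoters listed there, 1.63% held it. CCAAT was present in every H1, H2A, H2B and H3 promoter listed (6, 16, 18 and 13) and in 3 of 13 H4 promoters, against 32.0% of all promoters. TATAAA was present in 39 of the 66 and in 6.80% of all promoters. The pair HIST1H2AC and HIST1H2BC share a single octamer at chr6:26124042-26124049, which is read as ATGCAAAT from the side of HIST1H2AC. These are matches of letters and say nothing of binding.

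Library totals ranged from 29362707 to 42478518 counts, and the 12 precursor B markers (such as PAX5 and VPREB1) all passed the filter, with a summed level of 2952 to 3035 CPM in +Asn, 2606 to 2683 CPM without asparagine and 2337 to 2423 CPM with iron. CPM here are TMM-scaled CPM as edgeR computes them. Of 7 T cell markers, CD3D, CD3E, CD3G, CD2 and CD4 had 1 to 7 counts over the 9 libraries and were not tested, and none of the 7 is at 0 over all libraries. The list summed to 341 to 363 CPM in +Asn, 299.8 to 370 CPM without asparagine and 254 to 275 CPM with iron, nearly all of it TRAC, the T cell receptor alpha constant segment. CD8A, with 77 counts over the 9 libraries, was called higher without asparagine (0 to 0.0803 CPM in +Asn, 0.133 to 0.614 without asparagine). The 8 myeloid and erythroid markers summed to 11.6 to 12.1 CPM in +Asn, 17.2 to 18.4 CPM without asparagine and 14.3 to 15.3 CPM with iron, most of it CSF1R, while ELANE, HBA1 and HBB had 2 to 3 counts over the 9 libraries. The part of these markers in the results below was not tested. Within -Asn, replicate 1 differed more from replicates 2 and 3 (chi-square per degree of freedom 40.3 and 44.6) than the latter did from each other (6.14), and the corresponding values within the other groups were 3.90 to 16.2. For counts of calls and for members given per library, results that change without it are given with that value. Single calls of other members and of list genes were not checked without it.

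Counts assigned to members were a small part of each library and were higher in both starved groups. RNA selection is not given in the sources used here. These counts may therefore leave out much of the member RNA that lacks a poly(A) tail. The summed level was 70.5, 69.1 and 75.5 CPM in +Asn, 188, 167 and 155 CPM without asparagine and 199, 206 and 198 CPM with iron. The 3 groups did not overlap. As a share of all counts without scaling, members made up 0.00613 to 0.00676% in +Asn, 0.0160 to 0.0192% in -Asn and 0.0211 to 0.0218% in -Asn+Fe. H2B genes were the largest part, at 33.2 CPM ± 0.773 (SD, n = 3) in +Asn, 82.0 ± 7.61 in -Asn and 94.8 ± 2.37 in -Asn+Fe. H2A genes went from 9.41 CPM ± 1.2 to 34.0 ± 2.09 and 44.8 ± 0.812. H4 genes went from 8.47 CPM ± 1.12 to 17.5 ± 0.638 and 26 ± 1.03, and H3 genes from 5.99 ± 0.602 to 9.97 ± 0.744 and 16.0 ± 0.403. H1 genes were at 14.6 CPM ± 0.914 in +Asn, 26.3 ± 6.69 in -Asn and 19.2 ± 3.20 in -Asn+Fe, and the starved groups overlapped, with the highest value, 33.7 CPM, in -Asn replicate 1. In such bulk samples a larger number of cells expressing a gene and more RNA per cell cannot be told apart.

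A few genes held a large part of these counts. Over the 9 libraries together, HIST1H2BK, HIST1H2AC and HIST1H1C held 38.2% of member counts, and with HIST2H2BE and HIST1H2BD (H2BC5) 54.4%. These 5 genes held 38.3% in +Asn, 58.3% in -Asn and 56.4% in -Asn+Fe. Per length, as CPM per kb of exon (RPKM) averaged over the 9 libraries, HIST1H2BK was at 61.1, HIST1H1C at 22, HIST1H2BD at 11.6, HIST1H2AC at 11.3, HIST1H4C (H4C3) at 7.14 and HIST2H2BE at 6.16. At the other end, 20 members did not pass the filter on low counts and together had 311 of 50604 member counts. HIST3H3, HIST1H2BA, HIST1H3D and HIST1H2AD had 0 counts in all 9 libraries. The last 2 overlap exons of AL031777.3 on the same strand, so reads from them may not have been assigned to them. In all, 15 members overlap an exon of another gene, and the near-identical copies HIST2H2AA3 and HIST2H2AA4, HIST2H3A and HIST2H3C, and HIST2H4A and HIST2H4B are uncertain for the same kind of reason.

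**Figure D1:**
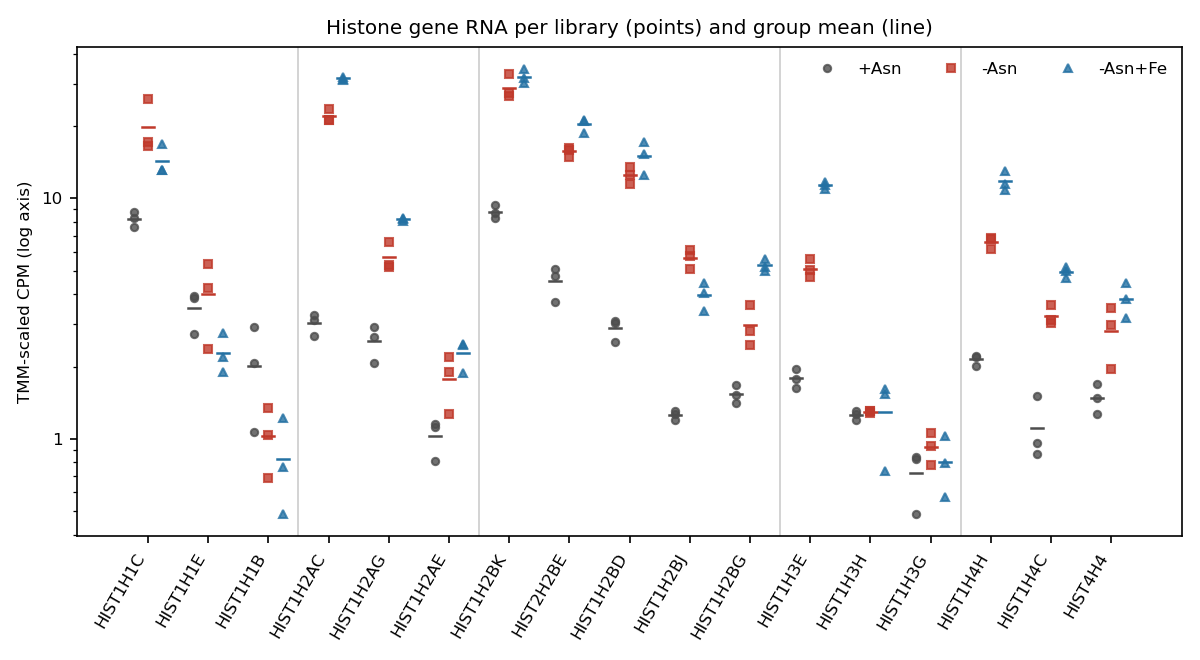
TMM-scaled CPM (log axis) of 17 members in each RNA library, grouped by family (H1, H2A, H2B, H3, H4, left to right); points are libraries and short lines the mean of 3. HIST1H2AC rises from about 3 CPM in +Asn to over 30 CPM in -Asn+Fe, while the points of HIST1H1B and HIST1H3H overlap between media.

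Removal of asparagine raised 21 of the 51 tested members and lowered 1 (edgeR's quasi-likelihood test over all genes, Benjamini-Hochberg adjusted p under 0.05, as for all RNA calls here). Over all 17939 genes tested, 31.0% were called higher and 30.2% lower. The members' shares were 41.2% and 1.96%. Of the members called higher, HIST2H4A, HIST1H4J and HIST1H2AJ passed the low-count filter only through starved libraries. The members' median log2 fold change was 0.64, against 0.04 over all genes. By family, 2 of 4 tested H1, 6 of 10 H2A, 7 of 16 H2B, 1 of 7 H3 and 5 of 14 H4 genes rose. With scaling by library totals alone the median of all genes shifted to 0.25 and that of the members to 0.85, with 22 members called higher and 0 lower.

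Addition of iron with hinokitiol to starved cells raised 7 and lowered 5 of the 51 tested members. These are 13.7% higher and 9.8% lower, against a background of 14.0% higher and 16.8% lower over all genes. The members' median was 0.17, against -0.01 over all genes. Against +Asn, the iron-treated cells had 20 members higher and 3 lower, where 32.9% of all genes were called higher and 31.9% lower. Median log2 fold changes in that comparison were 0.56 for members and 0.05 for all genes. The comparisons share libraries and are not independent. The count of members lower with iron fell from 5 to 3 without replicate 1 or 2 of -Asn or replicate 1 of -Asn+Fe, and to 2 without -Asn+Fe replicate 3. The 3 members lower against +Asn fell to 1 without +Asn replicate 3.

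Setting the first 2 comparisons side by side gave few recurring courses. HIST1H2AC, HIST1H2AG, HIST1H2BG, HIST2H2BE, HIST1H3E, HIST1H4C and HIST1H4H were called higher without asparagine and higher again with iron. HIST1H1C, HIST1H2AJ, HIST1H2BJ and HIST2H2AC were higher without asparagine and lower with iron. A further 10 were higher without asparagine and not called with iron, and 28 were called in neither. The remaining 2 were H1 genes, HIST1H1B (lower, then not called) and HIST1H1E (not called, then lower).

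**Figure D2:**
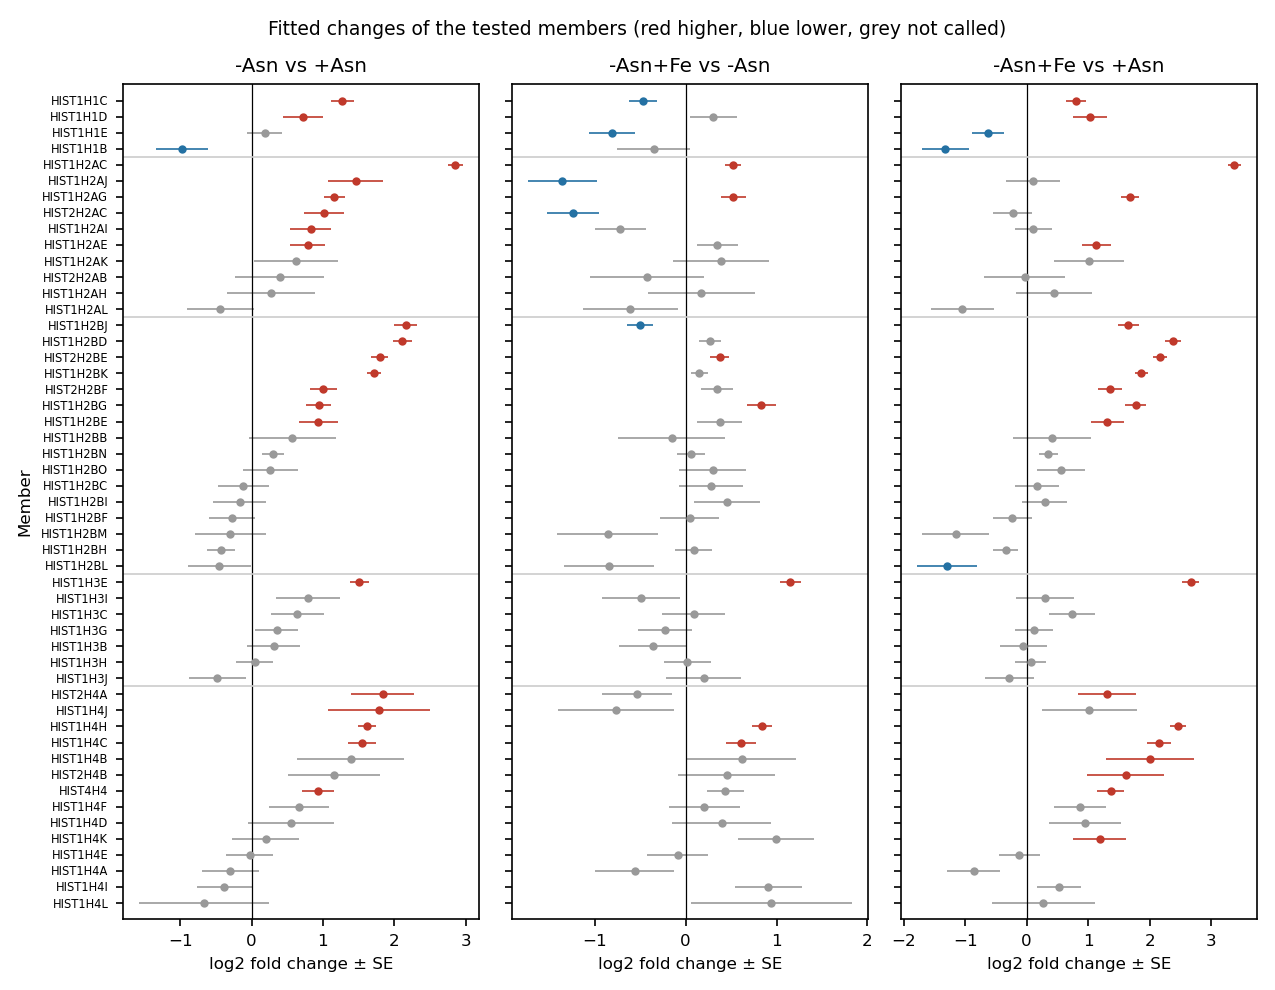
Log2 fold changes with standard errors of the 51 tested members in 3 comparisons, ordered within H1, H2A, H2B, H3 and H4 (top to bottom) by the change without asparagine; red points were called higher, blue lower and grey neither. In -Asn vs +Asn 21 points are red and 1 is blue, and in -Asn+Fe vs -Asn 7 are red and 5 blue.

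Linker histone genes moved in different directions. HIST1H1C (chr6:26055787-26056428, minus strand), which encodes H1.2, had 8.75, 8.32 and 7.59 CPM in +Asn, 25.9, 17.2 and 16.5 CPM without asparagine and 13.2, 16.8 and 13.1 CPM with iron. Both starved groups lay above +Asn and overlapped each other, and the highest value was that of -Asn replicate 1. Its log2 fold change was 1.27 ± 0.16 (SE, adjusted p = 4.9e-06) without asparagine and -0.47 ± 0.15 (adjusted p = 0.030) with iron. The second change was not called without -Asn replicate 1 (-0.23, adjusted p = 0.12), without -Asn+Fe replicate 1 (adjusted p = 0.12) or 3 (adjusted p = 0.10), or with the +Asn libraries left out of the fit (adjusted p = 0.060).

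HIST1H1E (H1-4, chr6:26156354-26157107), which encodes H1.4, had 2.73, 3.86 and 3.92 CPM in +Asn, 5.37, 4.25 and 2.37 without asparagine and 1.90, 2.77 and 2.19 with iron. All groups overlapped. Its log2 fold change was 0.18 ± 0.25 without asparagine and -0.81 ± 0.26 with iron (adjusted p = 0.026). That call was lost without -Asn replicate 1 (-0.54, adjusted p = 0.093), -Asn replicate 2 (adjusted p = 0.060), -Asn+Fe replicate 1 (adjusted p = 0.12) or -Asn+Fe replicate 3 (adjusted p = 0.072). Its change of -0.63 against +Asn (adjusted p = 0.047) was lost without +Asn replicate 2 or 3 or -Asn+Fe replicate 1 or 3 (adjusted p = 0.11, 0.12, 0.17 and 0.089).

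HIST1H1B (chr6:27866849-27867529, minus strand), which encodes H1.5, was the member called lower without asparagine. It had 1.07, 2.07 and 2.91 CPM in +Asn, 1.04, 1.35 and 0.692 without asparagine and 0.487, 1.22 and 0.767 with iron. The groups overlapped, and +Asn spanned the widest range. The log2 fold change was -0.97 ± 0.37 (adjusted p = 0.031) without asparagine and -1.33 ± 0.38 (adjusted p = 0.0067) in -Asn+Fe vs +Asn. The first was not called without +Asn replicate 2 (adjusted p = 0.059), without +Asn replicate 3 (-0.63, adjusted p = 0.18), without -Asn replicate 1 (adjusted p = 0.0502) or without -Asn replicate 3 (adjusted p = 0.11). It was also not called with library totals (-0.76, adjusted p = 0.081) or upper-quartile factors (-0.82, adjusted p = 0.064). HIST1H1D (H1-3) rose by a log2 fold change of 0.72 ± 0.28 without asparagine (adjusted p = 0.032).

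Among the H2A genes, HIST1H2AC (chr6:26124145-26139116) had the largest change of any tested member. It had 3.13, 2.68 and 3.28 CPM in +Asn, 23.6, 21.2 and 21.2 without asparagine and 32.1, 31.3 and 31.1 with iron. The 3 groups did not overlap. The log2 fold change was 2.86 ± 0.10 without asparagine (adjusted p = 7.4e-13) and a further 0.52 ± 0.08 with iron (adjusted p = 0.00022). This gene is one of those known to give polyadenylated as well as stem-loop transcripts.

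HIST1H2AG (H2AC11, chr6:27133042-27135291), which is among the genes encoding H2A type 1, had 2.65, 2.07 and 2.91 CPM in +Asn, 5.31, 6.58 and 5.19 without asparagine and 8.33, 8.20 and 8.04 with iron. Again no groups overlapped, with log2 fold changes of 1.16 ± 0.15 (adjusted p = 4.1e-06) and 0.52 ± 0.14 (adjusted p = 0.0077). HIST1H2AE (H2AC8, chr6:26216975-26217483) had 1.15, 1.12 and 0.812 CPM in +Asn, 2.19, 1.89 and 1.27 without asparagine and 1.88, 2.48 and 2.47 with iron. It was higher without asparagine (0.78 ± 0.24, adjusted p = 0.011), a call lost without +Asn replicate 3 (0.61, adjusted p = 0.066), and was not called with iron (0.35 ± 0.22). HIST2H2AC (H2AC20) and HIST1H2AJ (H2AC14), with 315 and 126 counts over the 9 libraries, rose by 1.01 and 1.46 without asparagine and fell by 1.24 and 1.36 with iron on the log2 scale (adjusted p = 0.0034 and 0.012 for the fall). HIST1H2AJ had 7, 7 and 10 counts in +Asn. It passed the low-count filter only through starved libraries, so its changes are not independent of the filter. HIST1H2AI (H2AC13) rose by 0.83 ± 0.29 without asparagine (adjusted p = 0.020).

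H2B genes were the most abundant. HIST1H2BK (chr6:27146418-27146798, minus strand) had 9.42, 8.67 and 8.32 CPM in +Asn, 32.8, 27.3 and 26.6 without asparagine and 30.2, 34.4 and 31.7 with iron. Both starved groups lay above +Asn and overlapped each other. Its log2 fold change was 1.71 ± 0.10 without asparagine (adjusted p = 2.8e-10) and 0.15 ± 0.09 with iron (adjusted p = 0.23), the latter called without -Asn replicate 1 (0.26, adjusted p = 0.019). HIST2H2BE (chr1:149884459-149886652, minus strand) had 4.76, 5.10 and 3.70 CPM in +Asn, 16.3, 14.8 and 16.0 without asparagine and 21.2, 18.8 and 20.9 with iron. The groups did not overlap, and the log2 fold changes were 1.80 ± 0.12 (adjusted p = 1.1e-09) and 0.37 ± 0.10 (adjusted p = 0.013). The second was just missed without replicate 2 of -Asn or replicate 1 or 3 of -Asn+Fe (adjusted p = 0.053, 0.052 and 0.054).

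HIST1H2BD (chr6:26158146-26171349) had 2.54, 3.02 and 3.08 CPM in +Asn, 13.5, 11.5 and 12.5 without asparagine and 15.3, 17.1 and 12.5 with iron. The starved groups overlapped each other and lay above +Asn. It rose by 2.11 ± 0.14 on the log2 scale without asparagine (adjusted p = 1.1e-09). Its change with iron, 0.26 ± 0.12 (adjusted p = 0.11), was called without -Asn replicate 1 (adjusted p = 0.043) or -Asn+Fe replicate 3 (adjusted p = 0.033). HIST1H2BJ (H2BC11, chr6:27125897-27132750, minus strand) had 1.31, 1.27 and 1.2 CPM in +Asn, 6.11, 5.75 and 5.09 without asparagine and 4.03, 3.41 and 4.46 with iron. It was highest in -Asn, with no overlap between groups, and changed by 2.16 ± 0.16 (adjusted p = 5.6e-09) and then -0.51 ± 0.14 (adjusted p = 0.012). The fall was not called without -Asn+Fe replicate 2 (-0.39, adjusted p = 0.055).

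HIST1H2BG (H2BC8, chr6:26215159-26216692, minus strand) had 1.53, 1.41 and 1.68 CPM in +Asn, 3.60, 2.82 and 2.47 without asparagine and 5.20, 5.63 and 5 with iron. Its 3 groups lay apart in rising order, by 0.94 ± 0.18 (adjusted p = 0.00021) and 0.83 ± 0.16 (adjusted p = 0.00077). HIST1H2BC, by contrast, was at 0.738 to 2.15 CPM across the 9 libraries with log2 fold changes of -0.11 ± 0.36 and 0.28 ± 0.35, called in neither comparison. The other 10 tested H2B genes included HIST2H2BF and HIST1H2BE, which rose by 1.01 and 0.94 without asparagine, and 8 that were not called in that comparison, of which HIST1H2BL was lower in -Asn+Fe vs +Asn (-1.30 ± 0.48, adjusted p = 0.027).

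Among 7 tested H3 genes, HIST1H3E (H3C6, chr6:26224199-26227473) was the one called. It had 1.63, 1.79 and 1.96 CPM in +Asn, 5.61, 4.72 and 5.03 without asparagine and 11.8, 11.0 and 11.4 with iron. The groups did not overlap, and the log2 fold changes were 1.51 ± 0.14 without asparagine (adjusted p = 6.0e-08) and 1.15 ± 0.12 with iron (adjusted p = 1.5e-06). HIST1H3H (H3C10, chr6:27810064-27811300) had 1.31, 1.27 and 1.2 CPM in +Asn, 1.31, 1.28 and 1.31 without asparagine and 1.62, 0.740 and 1.53 with iron. Its groups overlapped, with log2 fold changes of 0.04 ± 0.26 and 0.02 ± 0.25. HIST1H3G (H3C8, chr6:26269405-26271815, minus strand) had 0.830, 0.489 and 0.840 CPM in +Asn, 0.934, 1.06 and 0.784 without asparagine and 0.576, 1.03 and 0.795 with iron. It was called in no comparison (0.35 ± 0.30 and -0.23 ± 0.30).

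Nearly all H4 genes encode an identical protein. HIST1H4H (H4C8, chr6:26277609-26285638, minus strand) had 2.19, 2.22 and 2.02 CPM in +Asn, 6.75, 6.88 and 6.16 without asparagine and 11.5, 10.8 and 13 with iron. The 3 groups did not overlap, and the log2 fold changes were 1.62 ± 0.13 (adjusted p = 1.4e-08) and 0.84 ± 0.11 (adjusted p = 3.3e-05). HIST1H4C (chr6:26103876-26104310) had 0.963, 0.864 and 1.51 CPM in +Asn, 3.60, 3.12 and 3.04 without asparagine and 5.18, 4.99 and 4.69 with iron. It too rose in 2 steps without overlap, by 1.54 ± 0.20 (adjusted p = 3.4e-06) and 0.61 ± 0.17 (adjusted p = 0.011). HIST4H4 (H4C16, chr12:14767999-14771131, minus strand) had 1.69, 1.27 and 1.48 CPM in +Asn, 1.95, 2.97 and 3.5 without asparagine and 3.83, 4.47 and 3.18 with iron. Both starved groups lay above +Asn and overlapped each other. It rose by 0.93 ± 0.22 without asparagine (adjusted p = 0.0018), and its change with iron, 0.44 ± 0.20 (adjusted p = 0.11), was called without -Asn replicate 3 (adjusted p = 0.037). HIST2H4A (H4C14) and HIST1H4J (H4C11), with 145 and 106 counts over the 9 libraries, rose by 1.84 ± 0.44 and 1.79 ± 0.71 without asparagine (adjusted p = 0.0018 and 0.040). In +Asn HIST2H4A had 6, 7 and 6 counts and HIST1H4J had 7, 3 and 5. Both passed the low-count filter only through starved libraries, so these rises are not independent of the filter. HIST2H4B, the near-identical copy of HIST2H4A, was not called (1.16 ± 0.64, adjusted p = 0.13), and reads may be shared between the copies.

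Calls were counted separately for members with long and short annotated exon sequence, and the difference between these groups was not tested. A bare stem-loop histone transcript is short, so annotated exons over 1000 bases include sequence beyond it. Of 18 tested members with more than 1000 exon bases, 10 rose and 0 fell without asparagine, and 6 rose and 0 fell with iron. Of 33 with up to 1000 bases, 11 rose and 1 fell without asparagine, and 1 rose and 5 fell with iron. Over all genes tested, 31.0% were higher and 30.2% lower without asparagine, and 14.0% and 16.8% with iron. Length does not sort the members by transcript type, as HIST1H2BD, known to give polyadenylated RNA too, has 871 exon bases. The longer group was also more abundant, with a median level of 2.59 CPM against 0.486 CPM, and the part of abundance in these counts was not tested. Of 9 members known to give polyadenylated RNA too, a list drawn up with earlier results of these data known, 8 were tested. Among these 7 rose without asparagine, with a median log2 fold change of 1.75, and HIST1H2BC was the exception. Whether the libraries were selected for poly(A) is not given in the sources used here.

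Head-to-head partners were not always called together. With the most upstream annotated base taken as the start, there were 12 divergent pairs, 11 of H2A with H2B. Their starts were 219 to 357 bases apart, and in 10 of them both starts lay in the same H3K4me3 region. HIST1H2BO was counted with both HIST1H2AM and HIST1H3J. HIST1H2BN and HIST1H2AK, whose RefSeq promoters overlap on opposite strands, were not counted by this rule. In 8 pairs both partners were tested, and without asparagine both rose in 3, only 1 partner rose in 4 and neither rose in 1 (HIST1H3J and HIST1H2BO). Among all tested members 41.2% rose, and 31.0% of all genes did. Whether partners were called together more or less often than unrelated members was not tested. Some partners had few counts, and a missing call does not show a different response. For HIST1H2AC and HIST1H2BC, whose overlapping promoters are printed above, counts of HIST1H2BC per count of HIST1H2AC were 0.248, 0.484 and 0.496 in +Asn, 0.0554, 0.0650 and 0.0348 without asparagine and 0.0255, 0.0688 and 0.0402 with iron. The ratio fell in every starved library below every +Asn library, by 2.96 on the log2 scale in -Asn (exact two-sided permutation p = 0.10, the smallest that 3 against 3 allows). This pair was picked with its values seen, and that p-value is not particular to it. HIST2H2BE with HIST2H2AC, HIST1H2BJ with HIST1H2AG, HIST1H2BL with HIST1H2AI, HIST1H2AJ with HIST1H2BM, and HIST1H3J with HIST1H2BO reached it too.

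The pair HIST2H2BE and HIST2H2AC parted with iron. HIST2H2BE had 8.09, 6.81 and 4.71 counts per count of HIST2H2AC in +Asn, 11.1, 8.63 and 14.4 without asparagine and 45.7, 22.5 and 38.7 with iron, with no overlap between the groups. HIST1H2BJ had 0.495, 0.611 and 0.414 counts per count of HIST1H2AG in +Asn, 1.15, 0.873 and 0.982 without asparagine and 0.484, 0.416 and 0.555 with iron. That ratio was higher in -Asn than in either other group in every library. HIST1H2BK outnumbered its partner HIST1H2AH (H2AC12) in every library, with 3493 against 46 counts over the -Asn libraries, and their ratios in -Asn and +Asn overlapped. HIST1H2AH, with 130 counts over the 9 libraries, was not called without asparagine (0.27 ± 0.62). HIST1H2BG and HIST1H2AE rose together, and their ratio overlapped between -Asn and +Asn (exact two-sided permutation p = 0.60).

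**Figure D3:**
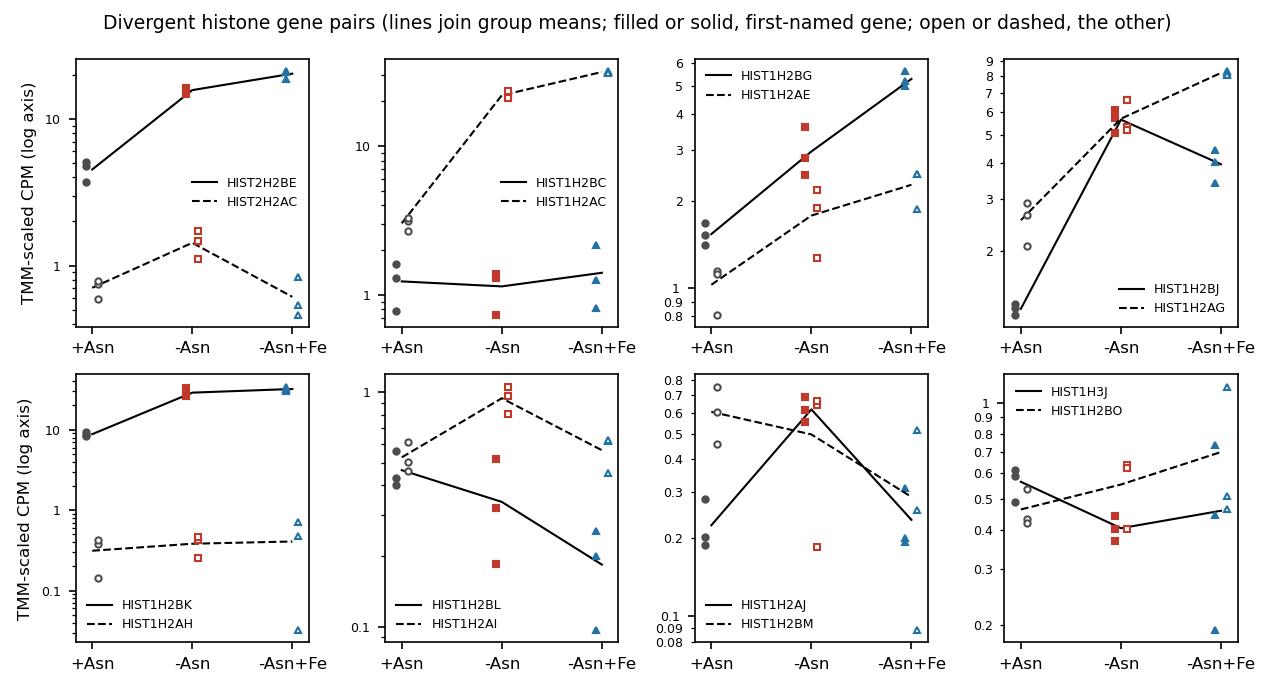
TMM-scaled CPM (log axis, own range in each panel) of both genes of 8 divergent pairs in +Asn, -Asn and -Asn+Fe; points are libraries, lines join group means, filled points and solid lines are the first-named gene and open points and dashed lines the other. HIST1H2AC climbs while HIST1H2BC stays between 0.738 and 2.15 CPM, and HIST1H2BJ and HIST1H2AG lie closest in -Asn.

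Along the HIST1 cluster, members that rose lay beside members that were not called. The member spans on chromosomes 6 and 1 also held 22 other coding genes, such as the butyrophilins BTN3A1 and BTN2A1, and 13 were tested. Of these neighbours, 6 were higher and 2 lower without asparagine, with log2 fold changes of -0.73 to 0.89. The shares over all genes tested were 31.0% and 30.2%. Among the neighbours BTN3A1 rose by 0.57 and the zinc finger gene ZNF184 fell by 0.73 on the log2 scale. With iron 1 of the 13 neighbours was higher and 3 were lower, against 14.0% and 16.8% of all genes.

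**Figure D4:**
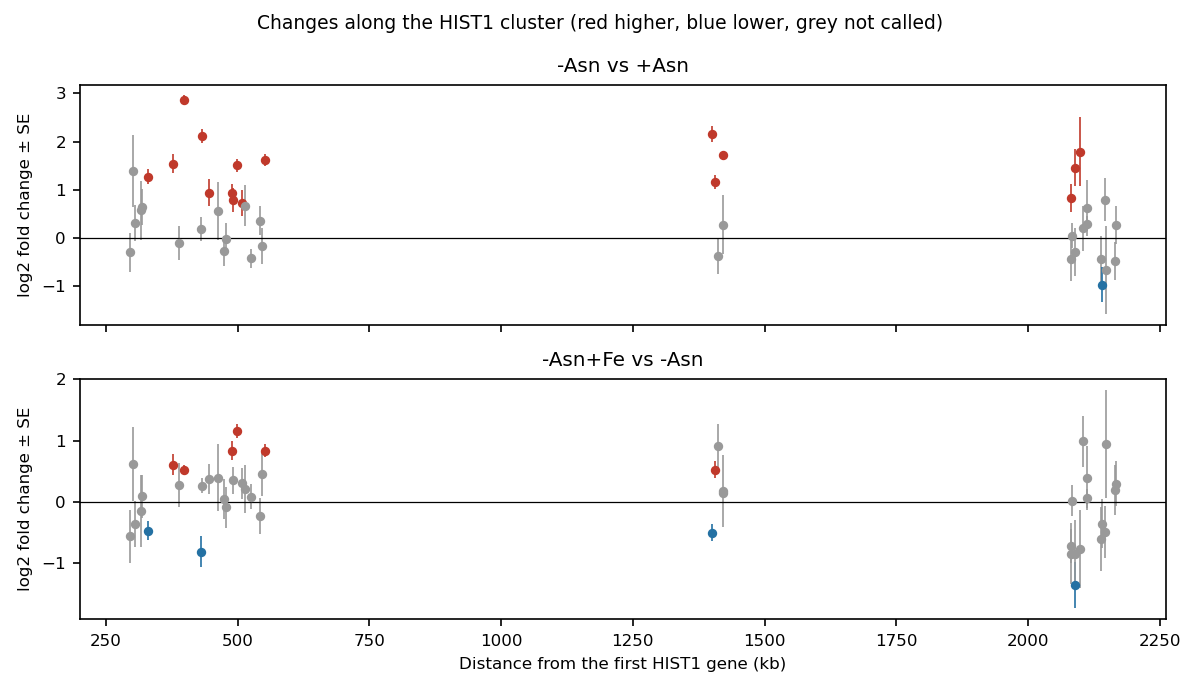
Log2 fold changes with standard errors of the tested HIST1 members against distance from the first HIST1 gene (kb), without asparagine (upper panel) and with iron (lower panel); red was called higher, blue lower and grey neither. Red and grey points lie side by side along the axis in the upper panel, where HIST1H1B is the blue point.

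Genes that serve histone supply were counted list by list. Over all genes, 31.0% were higher and 30.2% lower without asparagine, and 14.0% were higher and 16.8% lower with iron. All 25 tested genes of DNA replication and S phase were lower in -Asn than in +Asn, and all 25 were lower again with iron, with medians of -1.73 and -1.10. CCNE2, a cyclin of S phase entry, had a log2 fold change of -3.28 and then -1.29, the replication factor CDC6 -2.15 and -0.60, and the sliding clamp PCNA -1.31 and -0.58. Of 24 tested genes of histone 3′ end processing and the histone locus body, 17 fell and 3 rose without asparagine, and 11 fell and 0 rose with iron. SLBP, which binds the stem-loop, went from 208 to 216 CPM in +Asn to 120 to 131 in -Asn and 87.9 to 92.2 in -Asn+Fe (-0.77 and -0.47, adjusted p = 1.9e-08 and 4.2e-05). NPAT had log2 fold changes of -0.86 and -0.07, CASP8AP2 of -1.44 and -0.50, and LSM11 of the U7 particle of -0.07 and -0.50, of which the NPAT change with iron and the LSM11 change without asparagine were not called. HINFP, a factor of H4 promoters, rose by 0.25 without asparagine.

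Histone chaperones and import genes were lower for 19 of 26 tested and higher for 0 without asparagine, and with iron 13 were lower and 4 higher. ASF1B changed by -1.39 and -1.90, CHAF1A of the CAF-1 complex by -1.49 and -0.81, and NASP by -1.58 and -0.36, while ASF1A rose by 0.80 with iron. Of 15 tested genes of histone mRNA decay, 8 fell and 1 rose without asparagine, led by LSM3 (-1.38), and 4 fell and 1 rose with iron. Among 14 tested genes of general cleavage and polyadenylation 8 fell and 2 rose, including the poly(A) polymerase PAPOLA (-0.93) and PCF11 (0.34), and with iron 3 fell and 4 rose. Of 16 factors of histone promoters, 11 fell and 3 rose without asparagine. The octamer factor POU2F1 changed by -0.40 and its B cell coactivator POU2AF1 by 0.98, and with iron POU2AF1 changed by -0.91 and POU2F2 by 0.55.

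Replication-independent and variant histones were split. Of 12 tested, 5 rose and 6 fell without asparagine, and 0 rose and 8 fell with iron. The shares over all genes were 31.0% higher and 30.2% lower without asparagine, and 14.0% and 16.8% with iron. H1-10 rose by 0.92 and then fell by 0.70, and H3-3B rose by 0.75 and fell by 0.33, while H3-3A fell by 0.70 without asparagine. H2AX changed by -0.52 and -1.19, H2AZ1 by -0.36 and -0.47, and MACROH2A1 by -1.57 without asparagine, with a value of -0.08 with iron that was not called. The precursor B markers themselves were 9 lower and 3 higher of 12 without asparagine.

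H3K4me3 marked most member promoters in every medium. The deposited table gives only positions of peaks, so a region's presence and covered width were compared, not its height. Each gene was given the nearest region up to 1 kb from its most upstream base. That nearest region was called at 58 members in 3 of 3 +Asn libraries and at 57 members in 3 of 3 libraries of each starved group. The 58th member, HIST1H2BB, had a further region within that distance that was called in all 9 libraries. The nearest regions were 36 distinct ones, of which 35 were called in all 9 libraries and 18 were shared by 2 or more members. Of the 21 members whose RNA rose without asparagine, 20 had their nearest region in all 9 libraries. So had 48 of the 51 tested members and 9 of the 20 with too few counts to test. HIST1H2BE, whose RNA rose, was counted by its most upstream annotated base. Its RefSeq promoter (chr6:26183511-26183810) lies outside the region assigned to it (chr6:26171176-26173975). Member regions had a median width of 3055 bases, against 1720 bases for all 13883 regions called in all 9 libraries, a comparison of regions of which many cover more than one start.

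The small region over the start of HIST1H2BB (H2BC3, chr6:26043199-26043668) was the one not found throughout. Its covered width was 417, 357 and 461 bases in the +Asn libraries, it was called in 0 of 3 -Asn libraries and in 1 of 3 -Asn+Fe libraries, at 318 bases. The next region on the upstream side, assigned to HIST1H3C (chr6:26043843-26046481), was called in all 9 libraries, at 2397 to 2564 bases in +Asn and 2185 to 2639 in -Asn. The region over the HIST1H2BB start was the shortest of the member regions, and the RNA of HIST1H2BB, with 84 counts over the 9 libraries, had a log2 fold change of 0.57 ± 0.61 without asparagine. Of the 77 regions in the chromosome 6 span, 73 were called in all 9 libraries, 1 (this region) was lost from all -Asn libraries and 0 were gained.

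Few member regions were called by width. Without asparagine 2 of 35 were wider and 0 narrower (limma on log2 widths, Benjamini-Hochberg over all regions), while 14.6% of all regions were wider and 1.45% narrower. The median log2 change was 0.06 for member regions and 0.09 for all. With iron 0 were wider and 0 narrower, as over all regions (0% and 0%), with 0 wider and 3 narrower at an unadjusted p under 0.05. In -Asn+Fe vs +Asn 1 was wider and 0 narrower, against 11.7% and 1.92% of all regions.

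The region of HIST1H2BJ and HIST1H2AG (chr6:27129926-27134974) covered 4103, 4123 and 3703 bases in +Asn, 4419, 4871 and 4644 without asparagine and 4087, 3605 and 4299 with iron. It was widest in -Asn (log2 change 0.22 ± 0.07, adjusted p = 0.0496), and -Asn+Fe overlapped +Asn. The region of HIST1H2BN and HIST1H2AK (chr6:27835571-27840770) covered 4289, 4298 and 4180 bases in +Asn, 4472, 5128 and 4801 without asparagine and 4777, 4634 and 4574 with iron (0.17 ± 0.05, adjusted p = 0.036, without asparagine). Neither of these genes' RNA was called in that comparison. The region of HIST2H2BE, HIST2H2AC and HIST2H2AB (chr1:149884000-149889395) covered 4719, 4682 and 4708 bases in +Asn, 4915, 5212 and 5132 without asparagine and 5213, 4965 and 5251 with iron. It was wider in -Asn+Fe than in +Asn (0.13 ± 0.04, adjusted p = 0.043).

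These calls depended on single libraries. The count for -Asn vs +Asn was 0 without +Asn replicate 1, 2 or 3 or -Asn replicate 2 or 3, 1 without any one -Asn+Fe library, and 6 without -Asn replicate 1. For -Asn+Fe vs +Asn it was 0 without +Asn replicate 1 or 3, -Asn replicate 3 or -Asn+Fe replicate 1 or 3, 4 without -Asn replicate 1 and 6 without -Asn replicate 2. The libraries had 14741 to 15230 regions with a peak in +Asn, 15554 to 17448 in -Asn and 15891 to 17206 in -Asn+Fe, and the part of this difference in the widths was not tested. The region of HIST1H2BC and HIST1H2AC, the latter with the largest rise in RNA, covered 4707, 4584 and 4164 bases in +Asn and 4422, 5547 and 5282 in -Asn, which overlap (0.18 ± 0.08, adjusted p = 0.15). The region of HIST1H2BK and HIST1H2AH covered 4211, 4229 and 4089 bases in +Asn and 3962, 4105 and 4041 in -Asn (-0.05 ± 0.03, adjusted p = 0.34). The largest changes without a call were 0.25 at HIST1H4J, -0.21 at HIST1H4B and -0.21 at HIST1H2AJ and HIST1H2BM without asparagine, and 0.40 at HIST1H4K and -0.37 at HIST1H4D in -Asn+Fe vs +Asn (adjusted p = 0.073, 0.20, 0.15, 0.069 and 0.076).

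**Figure D5:**
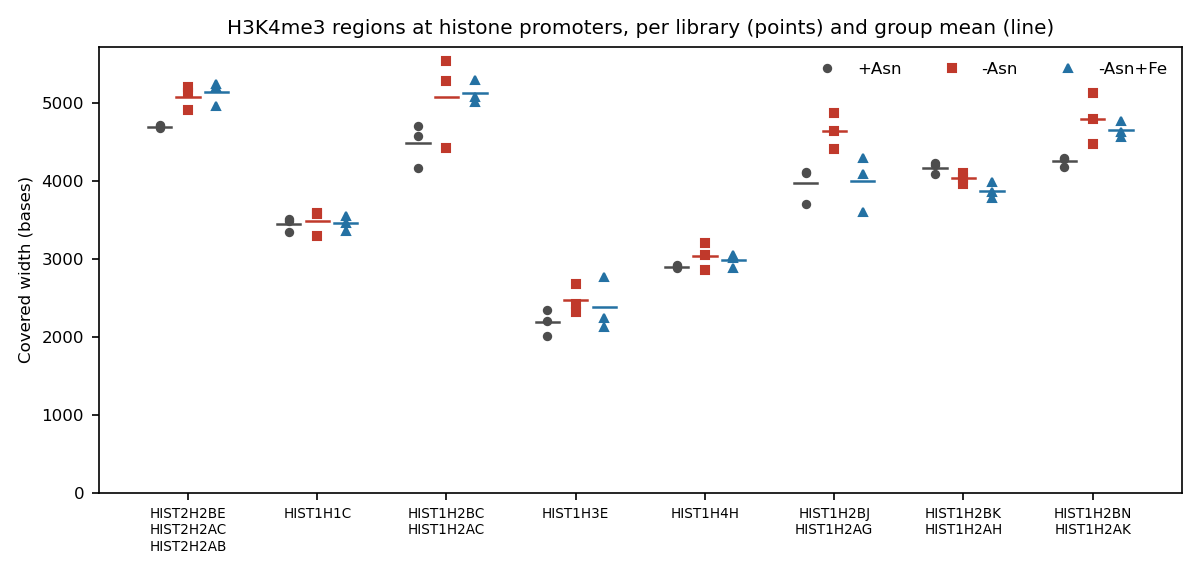
Covered width (bases) of H3K4me3 regions at 8 member promoters in each ChIP library, labelled by the members that share them; points are libraries and short lines the mean of 3. The region of HIST1H2BJ and HIST1H2AG is widest in -Asn (4419 to 4871 bases), and that of HIST1H1C differs little between media.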

How the data were processed

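RNA was measured in 9 libraries and H3K4me3 in 9 ChIP libraries of RS4;11 cells, and the 3 input libraries were not used. The deposited RNA values are raw counts per gene, for which the submitters' processing notes name featureCounts (Subread 1.6.5), the aligner STAR 2.7.2a, bcl2fastq and the build hg38. RNA selection, strand setting and the handling of multi-mapping reads were not given in the sources used here. Reads of near-identical copies and of overlapping genes may therefore be lost or shared. The deposited peak table gives positions of peaks in 19279 merged regions, with no read counts, for which the same notes name MACS2 2.2.7.1, Bowtie2 2.4.4 and Picard 2.18.26. Its header has 12 names for 13 fields, and since field 4 holds the region again in all 19279 lines, names were aligned after it. Its columns named untreated were taken as complete medium.

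Counts were tested with edgeR 4.0.16 (R 4.3.3; TMM factors 0.888 to 1.09, genes kept by filterByExpr, 1 robust quasi-likelihood fit of all 9 libraries, Benjamini-Hochberg over 17939 genes, biological coefficient of variation 0.0871). Covered widths of 13883 regions called in all 9 libraries were compared as log2 widths by limma 3.58.1. The scripts were tested on simulated data. DESeq2 1.42.0, other scalings and filters, a fold threshold of 1.2, a replicate block and leaving out each library were alternatives. The labels do not say whether replicate numbers pair the samples, and the main fits did not pair them. Deviations of same-number RNA libraries from their group means correlated at -0.081 to 0.072. Libraries of different numbers gave -0.086 to 0.098.

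The members and gene lists were chosen with earlier results of these data known. Members given per library were the 3 most abundant of each family and, per comparison and direction, the 3 called members with the largest change at 1 CPM or more. For other lists, up to 3 called genes per direction at 5 CPM or more could be named, besides a fixed set that includes SLBP, NPAT and CCNE2. Some genes of these lists are not reported here. Other members, markers and pairs are named beyond that rule, with their values seen. Gene names matched the name table for 69 of 71 members. Promoter sequences are from RefSeq, GRCh38.p14.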

Additional observations from a re-analysis of the deposited data

How the results depend on the processing

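Among the 17 members given per library, no called log2 fold change changed direction. Of 891 values of member log2 fold changes under alternatives, 851 kept their side of the threshold, 33 lost a call and 7 gained one. Members lower without asparagine went from 1 to 0 with upper-quartile factors, library totals, a stricter low-count filter or a 1.2-fold threshold, and were 0 to 1 with single libraries left out. Members lower in -Asn+Fe vs +Asn went from 3 to 1 with upper-quartile factors, 1 with library totals and 0 with the stricter filter, and were 1 to 4 with single libraries left out. The stricter filter, which tests fewer members, left 8 higher (of 21) without asparagine, 8 higher (of 20) in -Asn+Fe vs +Asn and 1 lower (of 5) with iron. The 1.2-fold threshold left 4 higher (of 7) and 2 lower (of 5) with iron, and the latter count was 2 to 5 with single libraries left out. As a share of all counts without scaling, members were 0.00644% in +Asn and 0.0215% in -Asn+Fe, against 0.00717% and 0.0201% of scaled counts. Library totals raised the share of higher calls among all called genes from 50.7% to 65.7% without asparagine and from 50.8% to 66.9% in -Asn+Fe vs +Asn, and upper-quartile factors to 62.1% and 64.3%.

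Member regions called by width without asparagine went from 2 to 1 with only the libraries compared and to 0 with the replicate block, and were 0 to 6 with single libraries left out. In -Asn+Fe vs +Asn the count went from 1 to 2 with outer spans, 4 with widths centred on library medians and 7 with only the libraries compared, and was 0 to 6 with single libraries left out. The cause was not tested for these changes. The replicate block left the RNA counts at 21 higher and 1 lower, 7 and 5, and 20 and 3 in the 3 comparisons. The 20 members with few counts limit what could be tested.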
